A study of Mus musculus with 6 samples.

Results

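The 50 genes examined here encode the main families of axon guidance cues and receptors, and they were compared in KDM6B knockout (KO) and wild-type (WT) neurons. They were chosen by name, with earlier results of these data known. They comprise 18 semaphorins, 11 plexins and neuropilins, and 5 Slit and Robo genes. A further 8 are genes for netrins and their receptors, and 8 are for EphB receptors and B ephrins. Of the 50, 26 are ligands and 24 receptors. All 50 were found among the 20040 entries of the deposited expression table, and all 50 passed the floor on low values. The KO libraries carry the labelled KDM6B knockout and number 3, and the WT libraries are labelled wild type and number 3. Both groups share the C57BL/6 background and are cortical neurons cultured from embryos at embryonic day 18. Kdm6b encodes a demethylase that takes repressive methyl groups off lysine 27 of histone H3. The labels do not say which part of the gene was deleted, in which cells, or whether replicates are separate cultures, and the p-values below therefore describe scatter among libraries that could be purely technical.

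Axon guidance cues steer the growing tip of an axon by attracting or repelling it. Semaphorins, secreted or held in the membrane, act through plexins, and most secreted ones need a neuropilin as the binding partner. Slit proteins repel axons through Robo receptors, netrins attract through Dcc and neogenin and repel through Unc5 receptors, and B ephrins and EphB receptors signal to each other at cell contacts. In the developing cortex these systems also guide migrating neurons and shape dendrites and synapses.

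Each value is a TPM, a share of transcripts scaled by gene length with the same total of 1000000 in each library. Levels can be compared between genes. Between libraries they compare as shares only, so a change in other genes can also move a value. The libraries held between 19761740 and 23503684 recovered counts, and the guidance genes rested on between 77 counts (Ephb4 in KO replicate 3) and 11128 counts (Neo1 in KO replicate 2) per library. Kdm6b itself averaged 11.4 ± 0.536 TPM in KO and 30.6 ± 0.279 TPM in WT (SD, n = 3 each), so its transcript was reduced in each KO library but not absent. Neuronal markers were abundant in both groups: the sum of 6 markers lay between 6310 and 6408 TPM in KO and between 6059 and 6089 TPM in WT. The Y-linked transcripts Ddx3y, Eif2s3y, Kdm5d and Uty were near 0 in KO, at between 0.361% and 0.548% of WT, and Xist averaged 231.5 TPM in KO against 74.0 TPM in WT. Genotype and the sex mix of the embryos therefore cannot be told apart in any comparison here.

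Of the 50 guidance genes, 9 rose in KO, 2 fell and 39 did not pass at the 0.05 level of limma's adjusted p, which was fitted to log2(TPM + 0.5) and corrected by Benjamini-Hochberg over all 14983 genes above the floor. Both neuropilin genes, Nrp1 and Nrp2, and both Robo genes of the 50, Robo1 and Robo2, were among those that rose. So were the semaphorins Sema4b, Sema4g, Sema6c and Sema6d and the receptor gene Ephb1. Slit3, a Robo ligand, and Unc5a, a netrin receptor, were the 2 that fell. The risers made up 18.0% of the guidance genes, beside 4.15% of all tested genes that rose. The fallers made up 4.00%, beside 6.74% of all tested genes that fell, and 22.0% of the guidance genes passed in either direction, beside 10.9% of all tested genes. Of all calls 38.1% were higher in KO, and 53.1% were so after median centring. In 21 of the 50, or 42.0%, the KO and WT libraries did not overlap, beside 31.7% of all tested genes. Since the 50 were chosen with earlier results of these data known, these shares describe the set and do not test for an excess. Nor were the shares matched for level: each of the 50 averaged at least 2.77 TPM, while the floor for tested genes was 0.5 TPM. The median log2 fold change was 0.02 over the 50 genes and -0.02 over all tested genes, and the median absolute log2 fold change was 0.09 and 0.08. Because these are bulk samples, less RNA per cell and fewer cells of a type cannot be told apart.

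**Figure D1:**
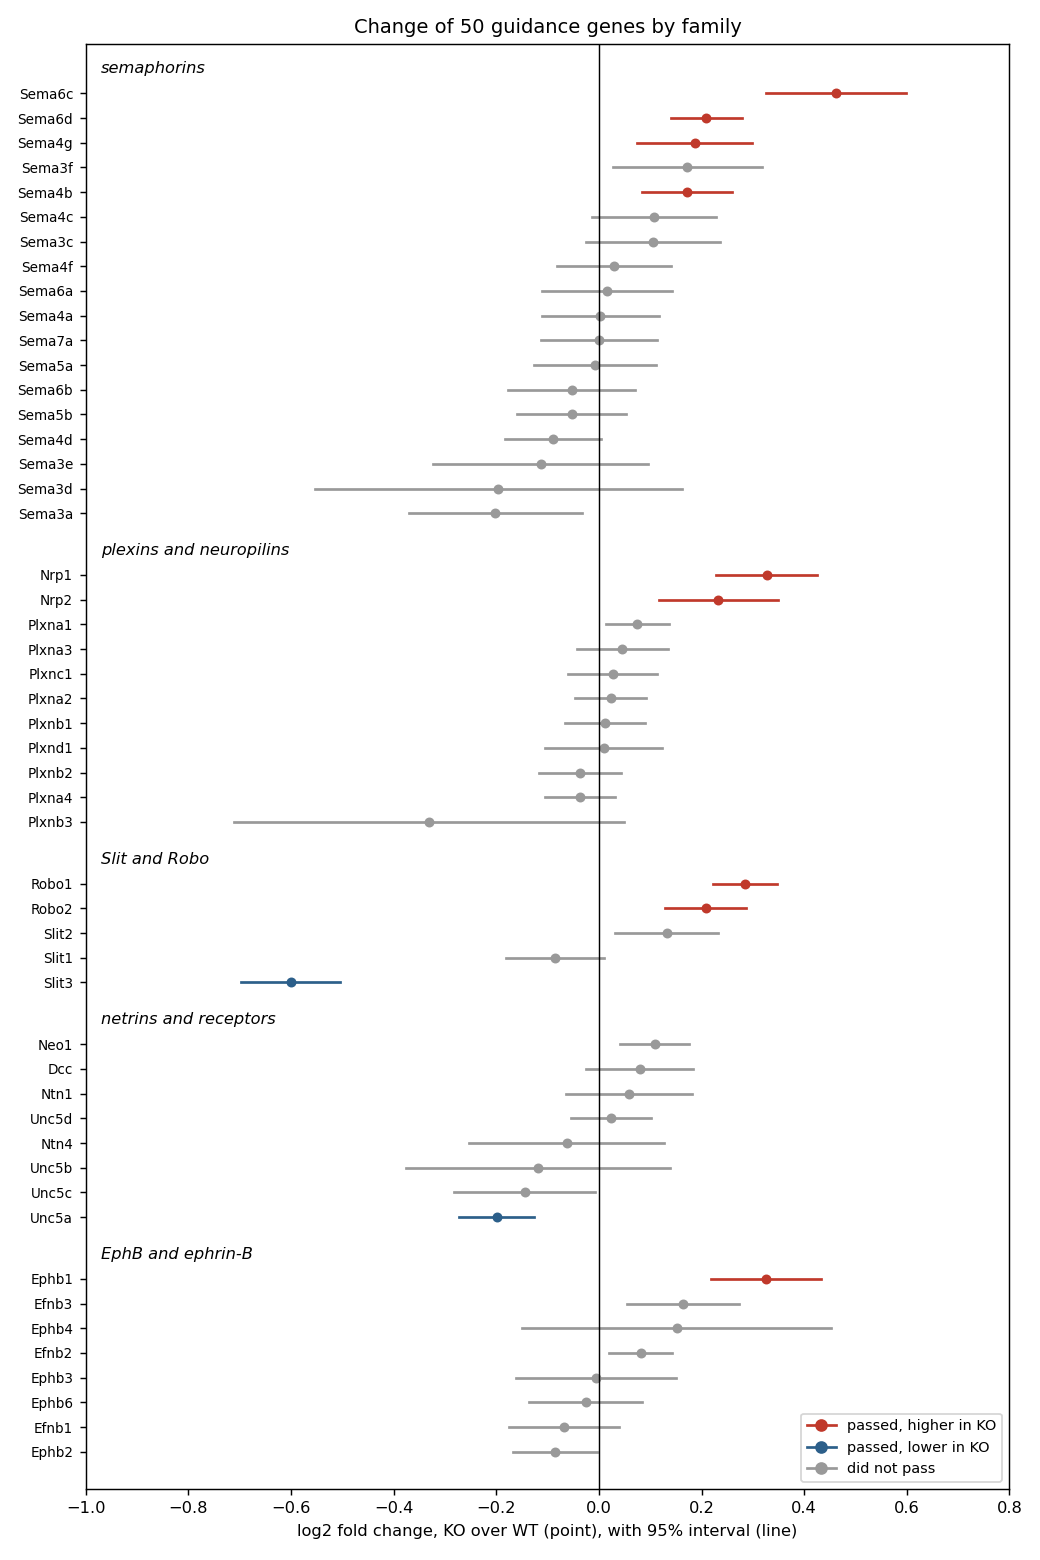
The log2 fold change of each of the 50 guidance genes, KO over WT, on the horizontal axis, with its 95% interval as a line, grouped by family down the page. Red marks the 9 genes that passed and were higher in KO, blue the 2 that passed and were lower, and grey the 39 that did not pass; Slit3 at -0.60 and Sema6c at 0.46 lie farthest from 0 among those that passed.

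The differences were small in size. Slit3 was the one gene that passed with a ratio of group means beyond 1.5-fold, and the other 10 lay between 87.0% of WT (Unc5a) and 139.0% of WT (Sema6c). Among the 39 genes that did not pass, group means lay between 76.5% (Plxnb3) and 113.8% (Ephb4) of WT. The 95% interval of their log2 fold change stayed within 0.32 of 0 in either direction for 33 of the 39. The 6 exceptions were Sema3a, Sema3d, Sema3e, Plxnb3, Unc5b and Ephb4, of which Sema3d, Plxnb3 and Ephb4 averaged below 5 TPM. For these 6 genes the interval reached beyond that size.

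**Figure D2:**
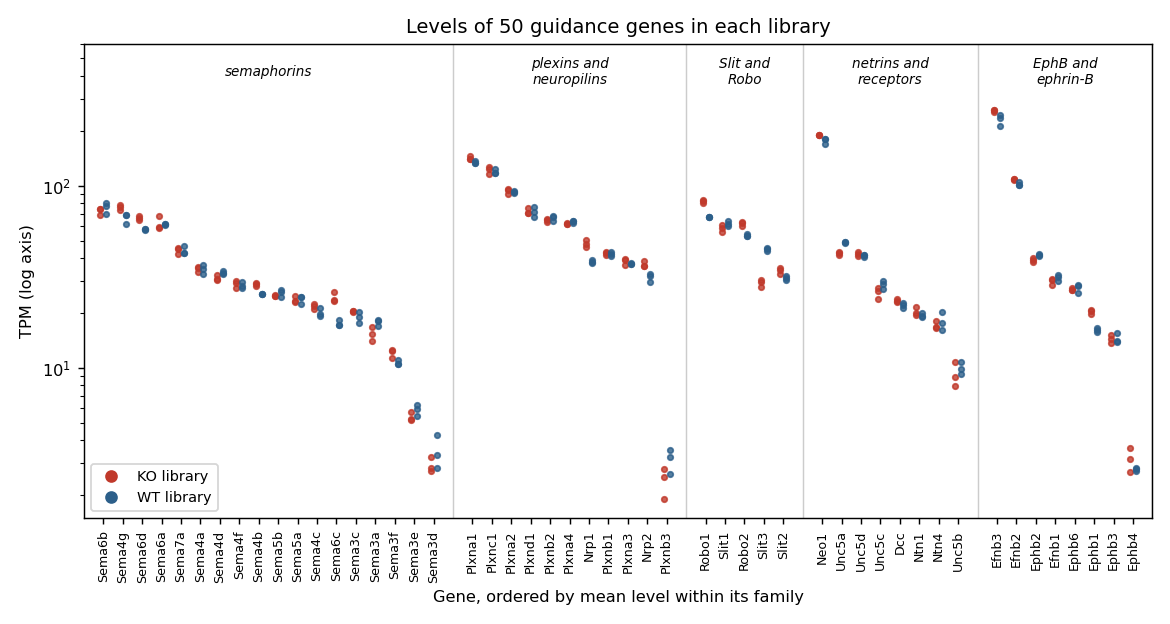
Level of each of the 50 guidance genes in every library, in TPM on a log axis, ordered by mean level within its family, with KO libraries in red on the left of each pair and WT libraries in blue on the right. Levels span from under 5 TPM for Sema3d, Plxnb3 and Ephb4 to over 100 TPM for Efnb3, Neo1, Plxna1, Plxnc1 and Efnb2, and the groups lie close together for most genes.

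The sequences just before the RefSeq start of 5 genes that passed are shown because they place pairs and opposites side by side: the neuropilin genes Nrp1 and Nrp2 and the receptor gene Robo1, which rose, and Slit3 and Unc5a, which fell. Each is the 250 bases before that start, 5′ to 3′, from RefSeq on GRCm38.p6, with CG pairs in capitals. Some CG-rich promoters are known to carry trimethylation of histone H3 lysine 27 in embryonic cells. No histone mark was measured here.
Robo1, chr16:72662899-72663148, plus strand: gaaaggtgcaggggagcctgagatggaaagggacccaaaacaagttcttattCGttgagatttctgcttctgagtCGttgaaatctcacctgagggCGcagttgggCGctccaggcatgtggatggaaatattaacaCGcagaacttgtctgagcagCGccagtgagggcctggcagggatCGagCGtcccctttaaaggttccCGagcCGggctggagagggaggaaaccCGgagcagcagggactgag
Nrp1, chr8:128358823-128359072, plus strand: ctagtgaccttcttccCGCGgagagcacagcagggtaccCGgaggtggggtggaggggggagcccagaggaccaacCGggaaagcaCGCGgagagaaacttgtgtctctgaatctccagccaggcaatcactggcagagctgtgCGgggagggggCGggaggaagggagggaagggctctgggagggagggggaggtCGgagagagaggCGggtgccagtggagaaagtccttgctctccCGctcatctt
Nrp2, chr1:62703067-62703316, plus strand: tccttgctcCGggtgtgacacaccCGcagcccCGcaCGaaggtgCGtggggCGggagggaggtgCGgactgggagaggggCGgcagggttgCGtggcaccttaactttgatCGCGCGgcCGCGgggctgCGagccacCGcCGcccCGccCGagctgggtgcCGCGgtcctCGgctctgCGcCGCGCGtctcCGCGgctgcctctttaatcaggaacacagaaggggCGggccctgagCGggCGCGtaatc
Slit3, chr11:35121206-35121455, plus strand: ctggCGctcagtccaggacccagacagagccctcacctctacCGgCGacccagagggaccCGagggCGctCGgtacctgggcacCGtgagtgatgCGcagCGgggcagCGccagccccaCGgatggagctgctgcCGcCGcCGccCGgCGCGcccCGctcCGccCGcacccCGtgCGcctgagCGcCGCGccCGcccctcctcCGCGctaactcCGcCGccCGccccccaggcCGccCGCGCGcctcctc
Unc5a, chr13:54949161-54949410, plus strand: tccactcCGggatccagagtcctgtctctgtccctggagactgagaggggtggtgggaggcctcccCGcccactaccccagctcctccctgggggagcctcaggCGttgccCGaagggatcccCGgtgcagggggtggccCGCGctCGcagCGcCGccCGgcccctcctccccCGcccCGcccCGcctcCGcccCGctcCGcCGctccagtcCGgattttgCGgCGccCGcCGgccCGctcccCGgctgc
The stretches of Slit3 and Unc5a held 35 and 25 CG pairs at a GC content of 78.8% and 76.8%. Nrp2 held 32, while Nrp1 and Robo1 held 11 each at 64.4% and 56.0% GC. RefSeq and the GENCODE spans printed here place the starts differently. The Robo1 and Nrp1 stretches lie wholly inside the GENCODE gene, and that of Slit3 lies mostly inside it. The Nrp2 stretch reaches into its gene only at the end, while that of Unc5a ends just before the gene. The Robo1 stretch lies far from the GENCODE start of that gene at 72308306.

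Over the whole set, promoter windows of 300 bases (250 before and 50 after the start) were found for 41 of the 50 genes, and the first listed window was used for the 9 genes with several. The median ratio of observed to expected CG pairs was 0.692 over the 41 and 0.760 over 10750 tested genes with a window. It exceeded 0.6 in 29 of 41, or 70.7%, beside 71.5% of the tested genes. Among the 9 that rose, 7 exceeded it, as did both that fell and 20 of the 30 that did not pass. The GC box GGGCGG, searched on both strands, was present in 6 of the 9 that rose, in both that fell and in 70.0% of those that did not pass, beside 64.7% of tested genes. TATAAA, searched the same way, was in none of the 9 or the 2, in 2 of the 30 others and in 752 of the 10750 tested genes. The 2 motifs share no bases, and these shares are a description of the letters in these windows.

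Of the 18 semaphorin genes, 4 rose, none fell and 14 did not pass. Those that rose were 2 of the 6 class 4 genes and 2 of the 4 class 6 genes, both classes of transmembrane proteins. The summed level of all 18 was 596.1 ± 7.31 TPM in KO and 571.1 ± 12.9 TPM in WT (SD, n = 3 each), and per library it was 597.4, 588.2 and 602.6 TPM in KO against 584.9, 569.1 and 559.3 TPM in WT.

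Sema6c, a transmembrane class 6 semaphorin, had the largest rise among the 50 genes. It lies on chromosome 3 from 95160457 to 95174024 (GRCm38, plus strand) and held 23.5, 23.2 and 26.1 TPM in the KO libraries against 18.2, 17.1 and 17.1 TPM in the WT libraries. All 3 KO libraries were above all 3 WT libraries, and KO replicate 3 was the highest. The log2 fold change was 0.46 ± 0.06 SE at an adjusted p = 0.0028 in limma, a ratio of group means of 1.39. Sema6d, a class 6 relative known to bind the A plexin Plxna1, held 66.3, 65.2 and 68.2 TPM in KO against 58.1, 56.8 and 57.6 TPM in WT. The groups were again apart, with a log2 fold change of 0.21 ± 0.03 SE at an adjusted p = 0.0048 in limma. The other class 6 members did not pass: Sema6b, the most abundant semaphorin on average over the 6 libraries, held 69.2, 74.8 and 74.8 TPM in KO against 80.1, 77.0 and 70.3 TPM in WT, and Sema6a had 101.3% of the WT level. Their libraries overlapped between groups.

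Sema4g and Sema4b, transmembrane class 4 semaphorins, rose by less and with less certainty. Sema4g held 73.7, 76.1 and 78.2 TPM in KO against 69.4, 69.0 and 62.0 TPM in WT (log2 fold change 0.19 ± 0.05 SE, limma adjusted p = 0.047), and WT replicate 3 was the lowest. Sema4b held 29.3, 28.0 and 28.9 TPM in KO against 25.5, 25.5 and 25.4 TPM in WT, with a log2 fold change of 0.17 ± 0.04 SE at an adjusted p = 0.027 in limma. Both missed the threshold whenever any 1 of the 6 libraries was left out, at adjusted p between 0.065 and 0.135 for Sema4g and between 0.056 and 0.084 for Sema4b. The other class 4 genes, Sema4a, Sema4c, Sema4d and Sema4f, did not pass and had between 93.9% and 107.8% of WT.

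None of the 5 secreted class 3 semaphorins passed, and each had a lower mean level than any semaphorin gene of the other classes, from 3.20 TPM for Sema3d to 19.7 TPM for Sema3c on average over the 6 libraries. Sema3a, the classical growth cone collapsing factor, held 16.8, 14.0 and 15.4 TPM in KO against 18.4, 18.0 and 17.0 TPM in WT. Its KO libraries were all lower, but the adjusted p was 0.125 in limma. Sema3f, a ligand of Nrp2, held 12.6, 11.4 and 12.3 TPM in KO against 11.0, 10.5 and 10.4 TPM in WT (limma adjusted p = 0.128), with all KO libraries higher. Sema3c, Sema3d and Sema3e overlapped between the groups. Sema3a, Sema3c, Sema3d and Sema3e all lie on chromosome 5, between 12383385 and 17730268. The class 5 genes Sema5a and Sema5b and the membrane-anchored Sema7a did not pass and had between 96.2% and 100.0% of WT.

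Of the 11 semaphorin receptor genes, both neuropilins rose and none of the 9 plexins passed. Neuropilins bind secreted semaphorins as well as vascular growth factors, and plexins carry the signal into the cell. Summed over both neuropilins, the level was 86.8, 86.7 and 82.2 TPM in KO against 70.0, 71.9 and 67.4 TPM in WT, which is 122.2% of WT.

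Nrp1, the receptor subunit for Sema3a, lies on chromosome 8 from 128358604 to 128503363 (GRCm38, plus strand). It held 50.6, 48.0 and 45.9 TPM in the KO libraries against 38.1, 38.9 and 37.8 TPM in the WT libraries. The groups did not overlap, and the lowest KO library exceeded the highest WT library by more than the range within either group. The log2 fold change was 0.33 ± 0.04 SE at an adjusted p = 0.0030 in limma. The exons of Nrp1 share 80 of their 9785 bases with the microRNA locus Mir1903, which averaged 29.1 TPM, and reads from those bases cannot be told apart. Nrp2, the subunit preferred by Sema3f, on chromosome 1 from 62703285 to 62818695, held 36.2, 38.7 and 36.3 TPM in KO against 31.9, 32.9 and 29.6 TPM in WT. Its log2 fold change was 0.23 ± 0.05 SE at an adjusted p = 0.025 in limma, and the call was lost on leaving out any 1 library other than WT replicate 2, at adjusted p between 0.051 and 0.083. Nrp1 held its call in all 6 such fits, at adjusted p up to 0.016.

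Plexin levels spread widely, and no plexin gene passed. Plxna1, the most abundant, held 140.7, 139.7 and 145.6 TPM in KO against 136.9, 133.8 and 133.6 TPM in WT. The libraries of the groups did not overlap, but the log2 fold change was 0.07 ± 0.03 SE at an adjusted p = 0.118 in limma. Plxna2, Plxna3, Plxna4, Plxnb1, Plxnb2, Plxnc1 and Plxnd1 had between 97.4% and 103.3% of the WT level, and their groups overlapped. Plxnb3, at 2.40 ± 0.447 TPM in KO and 3.14 ± 0.471 TPM in WT (SD, n = 3 each), was the least abundant of the 50 genes and did not pass (limma adjusted p = 0.25). Plxna3 and Plxnb3 are X-linked, as is Efnb1.

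The Slit and Robo family moved in opposite directions: both Robo receptor genes rose, Slit3 fell, and Slit1 and Slit2 did not pass. Slit3 encodes a secreted repellent of the Slit family and lies on chromosome 11 from 35121224 to 35708507 (GRCm38, plus strand). It held 29.5, 27.9 and 30.5 TPM in the KO libraries against 44.7, 45.2 and 44.1 TPM in the WT libraries. The groups were far apart, with the highest KO library well below the lowest WT library. The log2 fold change was -0.60 ± 0.04 SE at an adjusted p = 2.4e-04 in limma, and the call held on leaving out any 1 library. Slit1, at 58.7, 60.6 and 55.9 TPM in KO against 61.8, 64.3 and 59.9 TPM in WT, overlapped between the groups (limma adjusted p = 0.23). Slit2 held 34.5, 32.7 and 35.5 TPM in KO against 30.5, 31.9 and 31.2 TPM in WT, apart but short of the threshold (log2 fold change 0.13 ± 0.04 SE, limma adjusted p = 0.095).

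The order of Slit2 and Slit3 differed between the groups. The ratio of Slit2 to Slit3 TPM was 1.17, 1.17 and 1.17 in the KO libraries and 0.682, 0.705 and 0.707 in the WT libraries. Slit2 was thus above Slit3 in each KO library and below it in each WT library; this ratio was chosen after its values were seen and was not tested. Summed over the 3 ligand genes, the level was 122.7, 121.2 and 121.9 TPM in KO against 136.9, 141.4 and 135.1 TPM in WT, or 88.4% of WT. Slit1 was the most abundant ligand gene of the family in all 6 libraries.

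**Figure D3:**
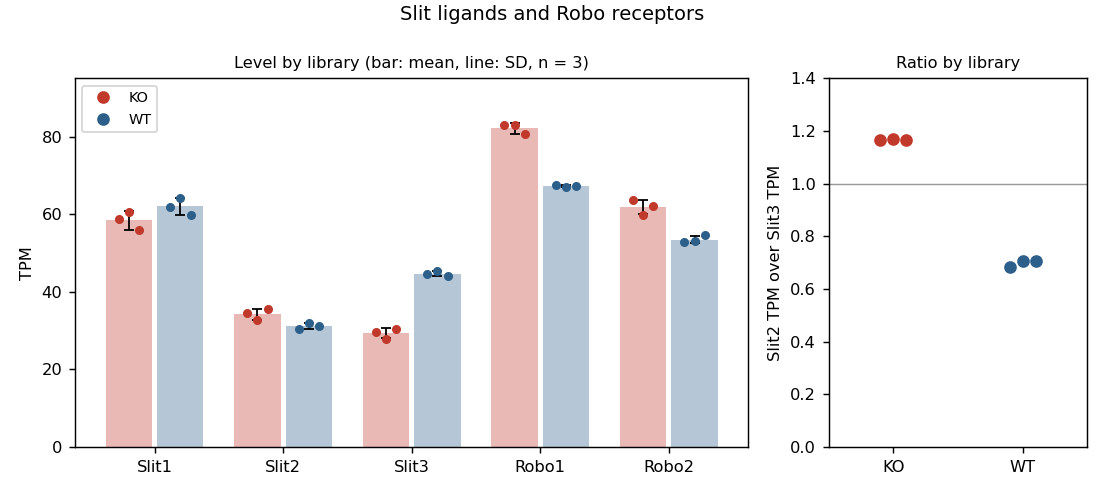
Left, TPM of the Slit ligand and Robo receptor genes, with bars for group means, lines for the SD (n = 3) and points for single libraries, KO in red on the left and WT in blue on the right of each pair. Right, Slit2 TPM over Slit3 TPM in each library, at 1.17 in all 3 KO libraries and between 0.682 and 0.707 in the WT libraries.

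Robo1 and Robo2 encode Slit receptors of the immunoglobulin superfamily that are known to act in axon tracts and in cortical progenitors. Robo1 lies on chromosome 16 from 72308306 to 73046095 (GRCm38, plus strand). It held 82.9, 83.1 and 80.6 TPM in KO against 67.7, 67.1 and 67.3 TPM in WT, and its log2 fold change was 0.29 ± 0.03 SE at an adjusted p = 9.7e-04 in limma. The WT libraries lay within a fraction of a TPM of each other, and every KO library was higher. Robo2 lies on the same chromosome from 73891839 to 74411825 on the minus strand, 845744 bases beyond the end of Robo1. It held 63.6, 59.8 and 62.0 TPM in KO against 52.8, 53.0 and 54.6 TPM in WT, with a log2 fold change of 0.21 ± 0.03 SE at an adjusted p = 0.0081 in limma. Both calls held in all 6 fits that left out 1 library. Summed, Robo1 and Robo2 stood at 146.5, 142.9 and 142.6 TPM in KO against 120.4, 120.1 and 121.8 TPM in WT, or 119.2% of WT.

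Of the 8 genes for netrins and their receptors, 1 fell, none rose and 7 did not pass. Unc5a encodes a receptor that turns the response to netrin into repulsion and lies on chromosome 13 from 54949411 to 55006018 (GRCm38, plus strand). It held 41.5, 42.7 and 43.0 TPM in the KO libraries against 48.2, 49.0 and 49.1 TPM in the WT libraries. The groups did not overlap, and the log2 fold change was -0.20 ± 0.03 SE at an adjusted p = 0.0073 in limma, a call that held on leaving out any 1 library. Its exons share 34 of their 4168 bases with Hk3 on the opposite strand, which averaged 0.0349 TPM. Its relatives did not pass: Unc5b, Unc5c and Unc5d had 92.2%, 90.4% and 101.7% of WT, and the libraries of each overlapped.

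The netrin ligand genes and the attractive receptors did not pass either. Ntn1, the founding netrin, held 20.0, 21.4 and 19.4 TPM in KO against 20.0, 19.0 and 19.3 TPM in WT, and Ntn4 held 18.1, 16.7 and 16.6 TPM in KO against 17.7, 16.1 and 20.2 TPM in WT. Both pairs of groups overlapped. Dcc, the attractive netrin receptor, held 23.9, 23.4 and 22.9 TPM in KO against 22.8, 21.3 and 22.2 TPM in WT; the groups were narrowly apart, and the adjusted p in limma was 0.32. Neo1, encoding neogenin, was the most abundant gene of the family and held 190.8, 190.5 and 190.5 TPM in KO against 181.0, 179.6 and 169.9 TPM in WT. All KO libraries were higher, and the log2 fold change of 0.11 ± 0.03 (SE) fell just short of the threshold (limma adjusted p = 0.053). It passed with a floor of 2 TPM (0.045), after median centring (0.027) and with limma voom on recovered counts (9.3e-04). It missed the threshold under the other 12 alternatives, at adjusted p between 0.052 and 0.142, among them each fit that left out 1 library.

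Of the 8 genes for EphB receptors and B ephrins, 1 rose, none fell and 7 did not pass. Ephb1 encodes a receptor tyrosine kinase for B ephrins and lies on chromosome 9 from 101922128 to 102354693 (GRCm38, minus strand). It held 19.8, 20.5 and 20.6 TPM in KO against 16.1, 15.8 and 16.5 TPM in WT. The groups did not overlap, and the log2 fold change was 0.32 ± 0.05 SE at an adjusted p = 0.0046 in limma, which held on leaving out any 1 library. Its exons share 152 of their 7002 bases with Gm26846 on the opposite strand, which has no entry in the table under that name.

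Ephb2, the most abundant EphB receptor gene here, held 38.9, 40.3 and 38.1 TPM in KO against 41.7, 40.9 and 41.9 TPM in WT and did not pass (limma adjusted p = 0.17). The ratio of Ephb1 to Ephb2 TPM was 0.508, 0.510 and 0.542 in KO and 0.387, 0.385 and 0.394 in WT, a ratio chosen after its values were seen and not tested. Ephb2 remained above Ephb1 in every library. Ephb3 and the kinase-dead Ephb6 had 99.5% and 98.1% of WT, and Ephb4, best known from veins, averaged 3.15 ± 0.471 TPM in KO and 2.77 ± 0.0451 TPM in WT (SD, n = 3 each). None of them passed, and their libraries overlapped.

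Efnb3, encoding ephrin-B3, was the most abundant of the 50 genes. It held 254.5, 259.4 and 259.0 TPM in KO against 235.2, 243.4 and 212.1 TPM in WT, and WT replicate 3 was the lowest. The groups did not overlap, with a log2 fold change of 0.16 ± 0.05 SE at an adjusted p = 0.065 in limma. It passed on leaving out WT replicate 2 (0.041), after median centring (0.043) and with limma voom (4.0e-04). It missed the threshold under the other 12 alternatives, at adjusted p between 0.052 and 0.160, and without WT replicate 3 its log2 fold change was 0.11. Efnb2 held 107.2, 108.6 and 108.4 TPM in KO against 104.6, 100.6 and 101.1 TPM in WT (limma adjusted p = 0.092), and Efnb1 had 95.3% of WT with overlapping groups. Summed over the 3 ephrins, the level was 392.2, 396.4 and 398.0 TPM in KO against 369.9, 375.7 and 345.3 TPM in WT.

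**Figure D4:**
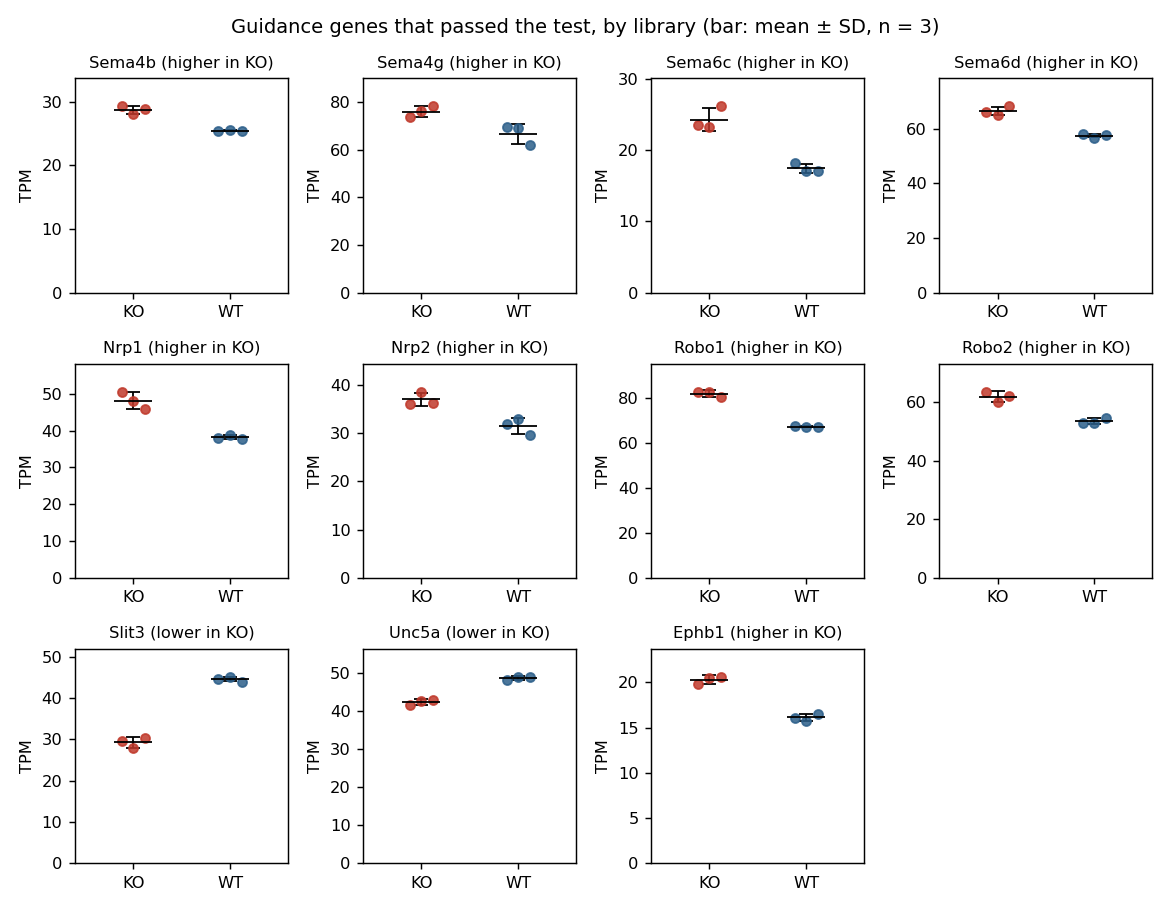
TPM of the 11 guidance genes that passed the test, with a point for each library, KO in red on the left and WT in blue on the right, and black bars for the mean and SD (n = 3). In each panel the KO and WT points do not overlap, with Slit3 and Unc5a lower in KO and the other 9 higher.

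Of 26 ligand genes 4 rose and 1 fell, and of 24 receptor genes 5 rose and 1 fell. Of all tested genes 4.15% rose and 6.74% fell. The summed ligand level was 1150.4, 1144.0 and 1158.5 TPM in KO against 1129.5, 1121.3 and 1079.2 TPM in WT. The summed receptor level was 1304.5, 1304.4 and 1308.7 TPM in KO against 1264.6, 1255.4 and 1232.6 TPM in WT. In every library the 24 receptor genes together exceeded the 26 ligand genes, and both sums depend on which genes were listed.

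A further 59 genes of guidance signalling, among them downstream adaptors and additional cues, were listed beside the 50, and 56 were above the floor. Of these 7 rose, 5 fell and 44 did not pass, 21.4% in either direction beside 10.9% of all tested genes, with a median log2 fold change of 0.00. This list too was chosen with earlier results of these data known. Chn1, encoding a Rac-inactivating chimaerin that acts downstream of Eph receptors, averaged 98.6 ± 1.79 TPM in KO and 137.6 ± 1.72 TPM in WT (SD, n = 3 each; limma adjusted p = 7.9e-05). Ngef, encoding ephexin, which binds Eph receptors, averaged 72.3 ± 2.12 TPM in KO and 88.4 ± 1.19 TPM in WT (limma adjusted p = 0.0014). Mical2, of the actin-oxidizing MICAL family, had 76.7% of WT (limma adjusted p = 4.6e-04). Rgma, a membrane-anchored ligand of neogenin, was higher at 114.8 ± 3.11 TPM in KO and 92.5 ± 1.92 TPM in WT (limma adjusted p = 0.0011). Draxin, a secreted cue that binds netrin and Dcc, had the largest ratio of the list, 15.7, 17.4 and 17.0 TPM in KO against 10.8, 11.4 and 9.82 TPM in WT (limma adjusted p = 0.0019); it was named after its values were seen.

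Some markers of cell types passed as well. Their counts stand beside 4.15% of all tested genes that rose and 6.74% that fell, and no list was tested for an excess. Of 6 general neuronal markers 1 rose and 1 fell. Of 5 excitatory neuron markers 3 fell, and their sum lay between 612.4 and 650.1 TPM in KO and between 857.1 and 871.2 TPM in WT. Of 6 interneuron markers 4 fell and 1 rose, with sums between 464.6 and 507.2 TPM in KO and between 586.4 and 597.2 TPM in WT. Of 6 astrocyte markers 2 rose and 1 fell, with sums of 2249 to 2392 TPM in KO and 2007 to 2059 TPM in WT. This list was mixed: Aldoc and Slc1a3 rose to 139.2% and 111.9% of WT, and Aldh1l1 fell to 86.6%. Gfap, Aqp4 and Slc1a2 had 75.6%, 88.2% and 101.8% of WT and did not pass. Of 5 meningeal fibroblast markers 3 rose and none fell, with sums between 45.1 and 57.6 TPM in KO and between 35.2 and 36.3 TPM in WT.

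Markers of the remaining types were lower in level or closer between groups. Of 5 Cajal-Retzius cell markers 1 rose (218.7 to 222.3 TPM in KO, 194.3 to 207.9 TPM in WT), of 7 oligodendrocyte lineage markers 2 fell (652.9 to 679.9 TPM in KO, 650.4 to 688.2 TPM in WT), and of 6 progenitor markers 1 fell (188.7 to 202.5 TPM in KO, 189.7 to 211.8 TPM in WT). Endothelial markers summed to 7.27 to 8.34 TPM in KO and 9.99 to 11.6 TPM in WT, with 1 of 5 lower. Pericyte markers summed to 8.68 to 10.4 TPM in KO and 6.96 to 8.83 TPM in WT, and microglial markers to 1.35 to 3.13 TPM in KO and 1.21 to 1.39 TPM in WT, with none called of the 2 pericyte and 1 microglial markers above the floor. The other 2 pericyte and 5 microglial markers were under the floor and were not tested, as were Cldn5 and Tek of the endothelial list, Lhx1 and Lhx5 of the Cajal-Retzius list and Eomes of the progenitor list. No marker of any list was at 0 in all 6 libraries. The part of these differences in the changes of Robo, neuropilin, Slit and other guidance genes was not tested.

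**Figure D5:**
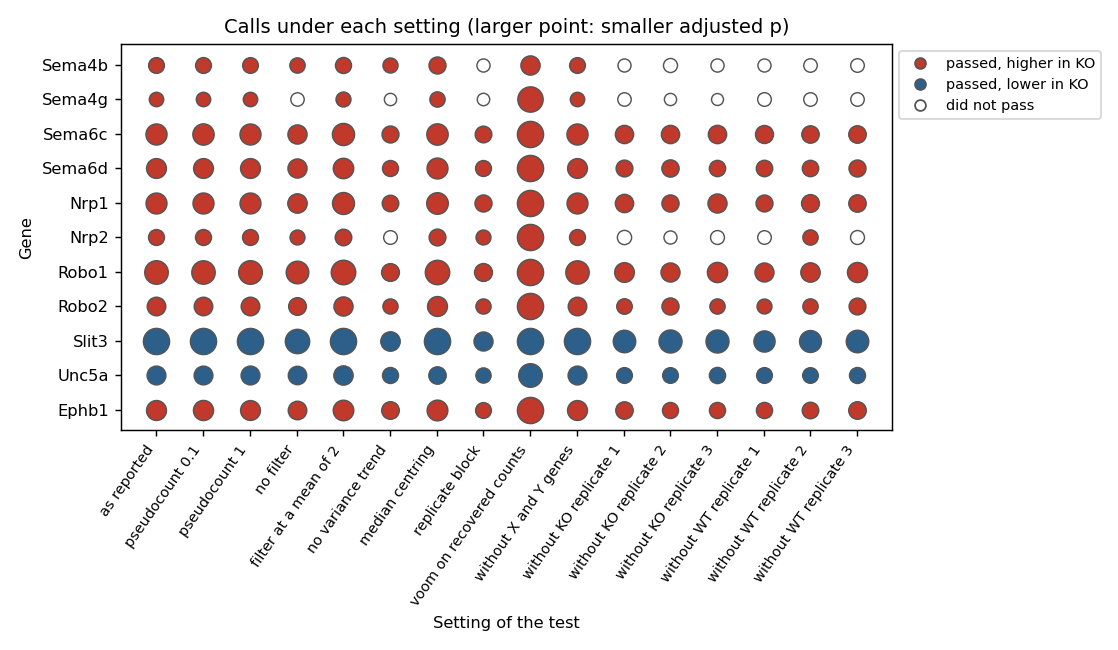
Calls of the 11 guidance genes that passed the test (rows), as reported and under 15 other settings (columns). A filled point marks an adjusted p below 0.05, red where higher and blue where lower in KO, an open point marks a lost call, and a larger point a smaller adjusted p; 8 of the 11 genes kept their call in every column, while Sema4b, Sema4g and Nrp2 lost theirs in several.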

How the data were processed

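The authors deposited 1 table with a column per library. Its values are TPM, since each column sums to 1000000, although the table is named for another unit. The submitters' processing notes list TopHat, featureCounts, edgeR, Picard 1.127, FastQC 0.11.2 and bcl2fastq 2.17 with the mm10 build, in no stated role or order. Annotation, strand use and filters of the authors are not known here. The planned test assumed values normalized per length and was kept.

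Genes averaging at least 0.5 TPM over the 6 libraries were fitted with limma 3.58.1 in R 4.3.3 on log2(TPM + 0.5), with a variance trend and no covariate, and p-values were adjusted over all of them. Fold changes on this scale understate those of low genes. The fit was checked on simulated data. Whole counts, needed for depth and for limma voom, were recovered from the deposited TPM, each being a whole multiple of 1 step per library divided by a whole gene length, for 100.0% of 19369 entries above 0 (tolerance 0.001 counts plus 1e-08 of the value). The smallest whole counts were taken, so totals are lower limits. Positions are from GENCODE M21 on GRCm38.

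The genes, the lists and the rule for naming genes were chosen with earlier results of these data known. The rule gives library values for each of the 50 that passed, the most abundant of each family and, among those that did not pass, any of at least 1 TPM beyond 1.5-fold, of which there were 0. It further names the 4 listed signalling genes with the smallest p. Values of other members were added. Alternatives were another pseudocount, floor or variance model, median centring, voom, a replicate term, leaving out X and Y genes, and leaving out each library.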

Additional observations from a re-analysis of the deposited data

How the results depend on the processing

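Among the 50 guidance genes, 9 rose and 2 fell. Across the 15 alternatives, none of the 15 guidance genes followed (the 11 that passed with Sema6b, Plxna1, Neo1 and Efnb3) reversed direction, and 8 of the 11 calls held throughout: Sema6c, Sema6d, Nrp1, Robo1, Robo2, Slit3, Unc5a and Ephb1. Leaving out 1 library gave 6 to 8 higher and 2 lower, with Nrp2, Sema4b and Sema4g the ones lost. Sema4g was lost without a floor (adjusted p = 0.072) and Sema4g and Nrp2 without the variance trend (0.117 and 0.065). Voom on recovered counts called 14 guidance genes higher and 5 lower, adding Efnb2, Efnb3, Neo1, Plxna1 and Slit2 as higher and Plxnb3, Sema3a and Unc5c as lower; median centring added Efnb2, Efnb3 and Neo1, for 12 higher. Of the 59 signalling genes voom called 13 higher and 9 lower. Over all genes, 622 were higher and 1010 lower, against 406 and 658 without the variance trend, 1183 and 1432 with voom, and 356 to 453 and 534 to 698 on leaving out 1 library; the lowest counts came without KO replicate 2 for higher and without WT replicate 1 for lower. The causes were not tested.

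Whether replicate numbers pair the samples is not known. Deviations of same-numbered KO and WT libraries correlated at 0.01, -0.05 and 0.01, and those of differently numbered ones between -0.04 and 0.03. With 3 libraries in each group, these values cannot decide whether numbers mark a shared culture or preparation. With the replicate block, 7 guidance genes were higher and 2 lower, Sema4b (0.082) and Sema4g (0.11) being lost, and over all genes 360 were higher and 585 lower.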
